A study of Rattus norvegicus with 18 samples.

Results

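The conjugation enzymes of rat liver described here were the UDP-glucuronosyltransferases (UGT), the cytosolic sulfotransferases (SULT) and the soluble glutathione transferases (GST). A gene was taken where a probe set of the array was annotated to exactly 1 gene and its symbol began as those of families 1 to 3 of the UGTs, of a numbered SULT family or of a lettered and numbered GST class. This gave 43 of the 18166 genes with a symbol of their own, namely 9 UGTs, 12 SULTs and 22 GSTs, each measured by 1 probe set. Another 7 probe sets of these families were annotated to several entries. They are given beside the members and were not counted among them.

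These enzymes carry out the second phase of drug and hormone metabolism. A UGT, fixed in the membrane of the endoplasmic reticulum, moves glucuronic acid from UDP-glucuronic acid to bilirubin, bile acids, steroids or drugs. A SULT moves sulfate from the donor PAPS to phenols, steroids and bile acids in the cytosol, and a GST couples reactive electrophiles to glutathione. The products are more soluble in water and leave with bile or urine. In liver most of this work is done by hepatocytes, and the receptors CAR, PXR and AHR and the oxidative stress factor NRF2 (gene Nfe2l2) are known to switch on many of the genes.

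Livers of 18 adult male Sprague-Dawley rats were profiled, 3 rats per group and 1 GeneChip Rat Gene 2.0 ST array per rat. Naive rats had no operation. All 15 other rats underwent partial hepatectomy (PHx), in which 50% of the liver mass is resected, and were studied on day 1. They had PHx alone, or were also bled of 3 ml without resuscitation (bleeding), or were bled and resuscitated with fresh red cells (F-RBC), with red cells stored for 7 days (S-RBC) or with 10% HAES, a starch solution. Every comparison with naive rats therefore carries the operation and the tissue remaining after it. For the operation the paper gives anaesthesia with ketamine and xylazine, and it states none for naive rats. No group was resuscitated without bleeding or bled without PHx. The paper of the study covers the naive, PHx, F-RBC and S-RBC groups and calls the profiling RNA-seq, whereas its methods describe these arrays.

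Levels are given as log2(intensity + 16), from the intensities summarised by the authors, and differences are in the same log2 units. The added 16 makes differences of dim probe sets smaller. Groups were compared with limma over all 18 arrays, and an adjusted p under 0.05 over all 36685 probe sets is called past the threshold. In whole liver RNA, fewer cells of a type and less RNA per cell cannot be told apart. The median intensity of an array ran from 16.1 to 23. Of 8 hepatocyte markers 6 were measured, and their mean log2 level was between 11.57 and 11.94 in every array. A mean can hide opposite moves of single markers. Against naive 1 of the 6 was called lower after F-RBC (1.28% of all probe sets) and 1 higher after S-RBC (2.56%). Against bleeding 1 was called higher after F-RBC (1.01%). The array of S-RBC replicate 1 stood apart, since its highest correlation with any other array was 0.938, against at least 0.968 for each of the other arrays. S-RBC rats entered 13 of the calls of members below, and 5 of these were still past the threshold when that array was left out. Calls of genes and probe sets outside the members are given only from the fit with all 18 arrays. For them no fit with an array left out or with another scaling is given.

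Most of the 43 enzymes stayed below the threshold in most comparisons. Of 516 tests of a member in a pair of groups, 33 passed, 22 higher and 11 lower, and they fell on 12 members. In a test of any difference among the 6 groups 11 members passed, among them Gstm7, which passed in no pair, where 6.59% of all probe sets passed. The shares over all probe sets given beside the members include dim probe sets and 17599 without a gene. Of the members 31 were brighter than the median probe set, and the shares were not matched to their level. Between PHx and naive rats 0 of 43 members were higher, beside 0.245% of all probe sets, and 2 were lower, beside 0.101%. Bleeding against naive gave 1 member higher (0.57% of all probe sets) and 1 lower (0.349%). F-RBC against naive gave 4 higher (4.9%) and 1 lower (1.28%). S-RBC against naive gave 3 higher (2.56%) and 5 lower (0.804%), and HAES against naive 3 higher (1.78%) and 1 lower (0.842%). With the naive level as reference, more members lay below than above it after PHx alone (28 of 43) and after bleeding (28 of 43). The median difference of the 43 members from naive was −0.12 after PHx and −0.23 after bleeding, while that of all probe sets was 0.03 and 0.06. It was −0.01 after F-RBC, against 0.14 over all probe sets, and became −0.13 with quantile normalization and −0.20 with median centring, which moved the median of all probe sets to 0 and −0.04.

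**Figure D1:**
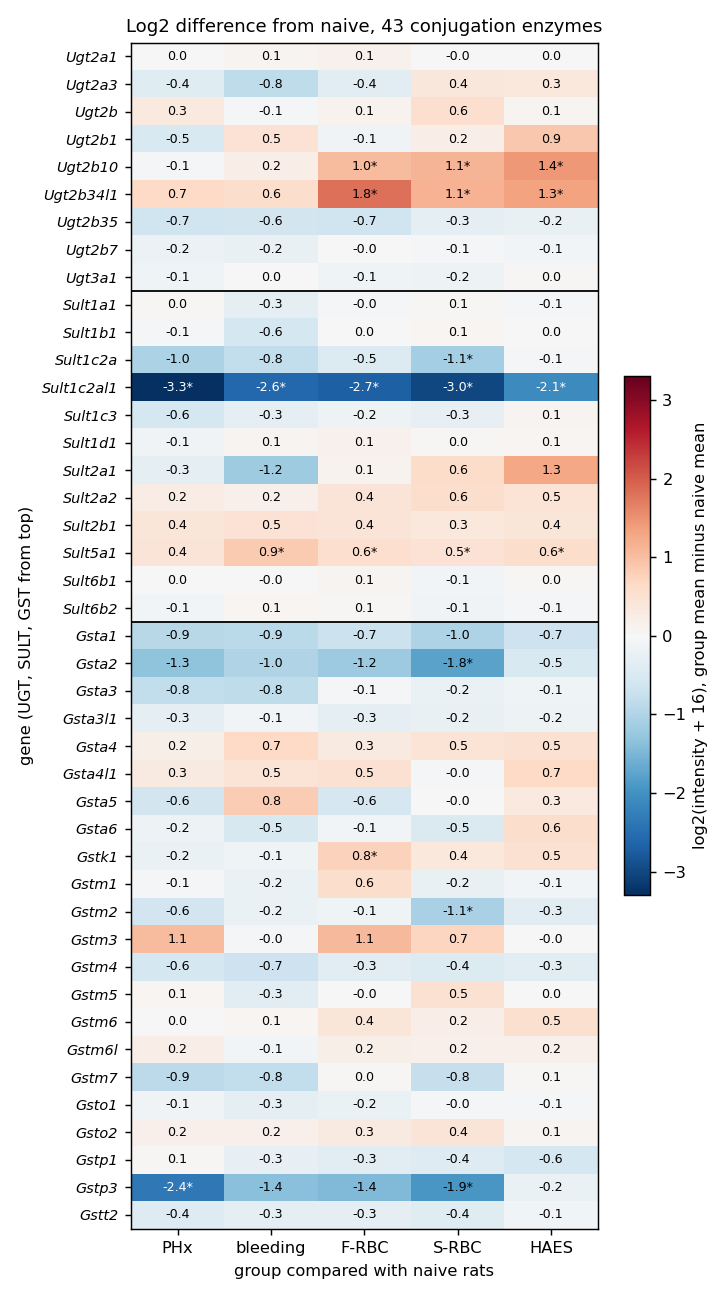
Heat map of the log2 difference of each of the 43 conjugation enzymes (rows, UGTs, SULTs and GSTs from the top, divided by black lines) from the naive mean in the 5 groups with PHx (columns, 3 rats each), red higher and blue lower, with an asterisk where the difference was past the threshold. The Sult1c2al1 row is blue with an asterisk in all 5 columns (−3.28 to −2.09), and the Ugt2b10 and Ugt2b34l1 rows are red with an asterisk in the F-RBC, S-RBC and HAES columns.

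Among the UGTs, Ugt2b10 and Ugt2b34l1 were higher than in naive rats in all 3 resuscitated groups. Against the groups that were operated on and not resuscitated, Ugt2b10 passed in 4 of 5 comparisons and Ugt2b34l1 in 1 of 5. The human gene named UGT2B10 encodes an enzyme that glucuronidates amines such as nicotine. In the RefSeq rat annotation (assembly GRCr8) Ugt2b34l1 is the next gene after the end of Ugt2b10, on the same strand. The sequences around their start sites are shown because both neighbours were called against naive rats in the same 3 groups. Each runs from 250 bases before to 50 bases after the start site used in the RefSeq table, on the + strand, at chr14:21462591-21462890 for Ugt2b10 and chr14:21500698-21500997 for Ugt2b34l1, and capitals mark GCGTG on either strand, the core bound by AHR. For Ugt2b34l1 that site is the first base of the annotated gene. For Ugt2b10 it lies 25902 bases inside the gene, which is annotated from 21436939 to 21483494, and the sequence before the outer end of that span was not searched.
Ugt2b10: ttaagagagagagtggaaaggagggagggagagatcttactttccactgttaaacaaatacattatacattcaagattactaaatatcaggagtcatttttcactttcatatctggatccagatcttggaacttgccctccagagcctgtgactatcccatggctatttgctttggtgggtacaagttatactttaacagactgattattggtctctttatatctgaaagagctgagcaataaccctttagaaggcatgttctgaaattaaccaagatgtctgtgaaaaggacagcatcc
Ugt2b34l1: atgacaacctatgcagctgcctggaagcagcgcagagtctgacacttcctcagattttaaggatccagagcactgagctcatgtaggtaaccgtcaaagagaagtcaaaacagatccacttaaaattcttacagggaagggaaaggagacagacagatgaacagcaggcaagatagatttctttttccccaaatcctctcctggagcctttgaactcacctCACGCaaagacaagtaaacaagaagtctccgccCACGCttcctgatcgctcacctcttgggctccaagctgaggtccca
The core stands at 2 places in the Ugt2b34l1 window, and these letters are not in the window used for Ugt2b10. In 30 of the 40 members with such a window the start site was within 100 bases of the outer end of the annotated gene. Of the 40 windows 10 held GCGTG, beside 29.7% of all 33469 windows in the RefSeq table, and a match is a description of letters only.

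The Ugt2b10 level in replicates 1, 2 and 3 was 8.64, 8.65 and 8.70 in naive rats and 8.52, 8.58 and 8.70 after PHx. After bleeding it was 9.33, 8.62 and 8.66. It was 10.19, 9.33 and 9.58 after F-RBC, 9.91, 9.65 and 9.79 after S-RBC, and 9.85, 10.15 and 10.23 after HAES. All 9 arrays of resuscitated rats lay at or above the highest of the other 9, and bleeding replicate 1 touched the lowest of them in the printed decimals. Only this member parted the arrays in that way, as did 0.733% of all probe sets. Against naive rats Ugt2b10 rose by 1.04 after F-RBC (SE 0.21, adjusted p = 0.00943), 1.12 after S-RBC (adjusted p = 0.00575) and 1.42 after HAES (adjusted p = 0.00126), and each of these held with any 1 array left out. Against PHx it rose by 1.10 after F-RBC (adjusted p = 0.0395) and 1.18 after S-RBC (adjusted p = 0.0137), and against bleeding by 0.92 after S-RBC (adjusted p = 0.0312) and 1.21 after HAES (adjusted p = 0.00736). The F-RBC call against PHx was lost with each of the 6 arrays left out in turn (adjusted p up to 0.18) and with both other scalings. That of S-RBC against PHx was lost without PHx replicate 1, PHx replicate 3 or S-RBC replicate 1 (up to 0.0617). Without S-RBC replicate 1 the difference from PHx was 1.12 and that from bleeding 0.85. Against bleeding, the S-RBC call was lost without bleeding replicate 2 or 3 or S-RBC replicate 1 or 2 (up to 0.143), and the HAES call without bleeding replicate 3 (0.0575).

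Ugt2b34l1 was lowest in naive rats, at 6.24, 6.39 and 6.06. It was 7.19, 6.48 and 7.02 after PHx and 6.60, 7.04 and 6.82 after bleeding. The resuscitated groups had 8.46, 8.03 and 7.69 (F-RBC), 7.68, 7.18 and 7.29 (S-RBC) and 7.28, 8.09 and 7.33 (HAES). All 3 naive arrays thus lay below all 15 arrays with PHx, which was so in 1 direction or the other for 4 of the 43 members and for 1.8% of all probe sets. Compared with naive rats it rose by 1.83 after F-RBC (SE 0.25, 95% interval 1.30 to 2.35, adjusted p = 0.000771), by 1.15 after S-RBC (adjusted p = 0.0170) and by 1.34 after HAES (adjusted p = 0.00691). F-RBC also exceeded bleeding by 1.24 (adjusted p = 0.0228). Its differences from the operated groups were otherwise not past the threshold. They were 1.16 for F-RBC against PHx (adjusted p = 0.0791), 0.49 for S-RBC against PHx (adjusted p = 0.393), 0.57 for S-RBC against bleeding (adjusted p = 0.220) and 0.75 for HAES against bleeding (adjusted p = 0.148). PHx and bleeding rats themselves differed from naive rats by 0.67 (adjusted p = 0.310) and 0.59 (adjusted p = 0.276). The F-RBC and HAES calls against naive held with any 1 array left out, while the S-RBC call was lost without naive replicate 1, naive replicate 3 or S-RBC replicate 1, with the adjusted p reaching 0.0684. The F-RBC call against bleeding held in 1 of 6 such fits, the exception being the one without F-RBC replicate 3, and the adjusted p rose to 0.0973. It was lost with quantile normalization too.

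Ugt2a3, whose human counterpart glucuronidates bile acids, changed along another line, with its lowest mean after bleeding. It was 7.53, 7.57 and 8.05 there, against 8.34, 8.94 and 8.35 in naive rats and 7.67, 8.56 and 8.16 after PHx. F-RBC rats had 8.35, 8.13 and 8.06, S-RBC rats 8.63, 9.03 and 9.08, and HAES rats 9.04, 8.60 and 9.05. The S-RBC and HAES arrays lay above every bleeding array, and Ugt2a3 rose against bleeding by 1.20 after S-RBC (SE 0.23, adjusted p = 0.0160) and by 1.18 after HAES (adjusted p = 0.0168). Both calls were lost without bleeding replicate 1 or 2, and the HAES call also without HAES replicate 3 (adjusted p up to 0.0747). Against bleeding the difference after F-RBC was not past the threshold.

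The other 6 UGT members were called in no pair. Ugt2b1, a rat enzyme of testosterone and morphine glucuronidation, spread widely after PHx, at 8.42, 10.34 and 9.51, and was 10.99, 10.81 and 10.63 after HAES, above the naive values of 9.90, 10.03 and 9.86 (difference 0.88, SE 0.39, adjusted p = 0.305). Ugt2b35 was highest in naive rats (10.59 ± 0.22, SD, n = 3) and had group means of 9.92 to 10.35 elsewhere. Ugt2b had means between 8.31 after bleeding and 8.91 after S-RBC. Ugt2a1, Ugt2b7 and Ugt3a1 were dim, and the range of their group means was 0.15, 0.24 and 0.18.

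The enzymes of family 1A, which include the bilirubin enzyme Ugt1a1, share their last exons, and the array measured 8 of their symbols by 1 probe set. Its level was 9.03, 9.41 and 9.65 in naive rats and 9.47, 9.39 and 9.42 after PHx. It was 9.84, 10.08 and 9.96 after F-RBC and 9.91, 9.98 and 9.93 after HAES, above every naive array, whereas S-RBC rats had 9.47, 9.66 and 9.29. The rise against naive was 0.60 after F-RBC (SE 0.15, adjusted p = 0.0248) and 0.58 after HAES (adjusted p = 0.0425). Between S-RBC and F-RBC rats the difference was −0.49 (95% interval −0.79 to −0.18, adjusted p = 0.104). The 2 probe sets annotated to Ugt2b15 and Ugt2b37 differed from each other. In one, the naive values of 10.33, 10.57 and 10.32 stood against 9.12, 8.31 and 9.85 after F-RBC, a fall by 1.31 (SE 0.30, adjusted p = 0.0191), and in the other the F-RBC mean was 9.77 ± 0.26 and the naive mean 10.11 ± 0.26 (SD, n = 3), which was not past the threshold. Which of the paralogs each probe set follows is not given by the annotation.

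**Figure D2:**
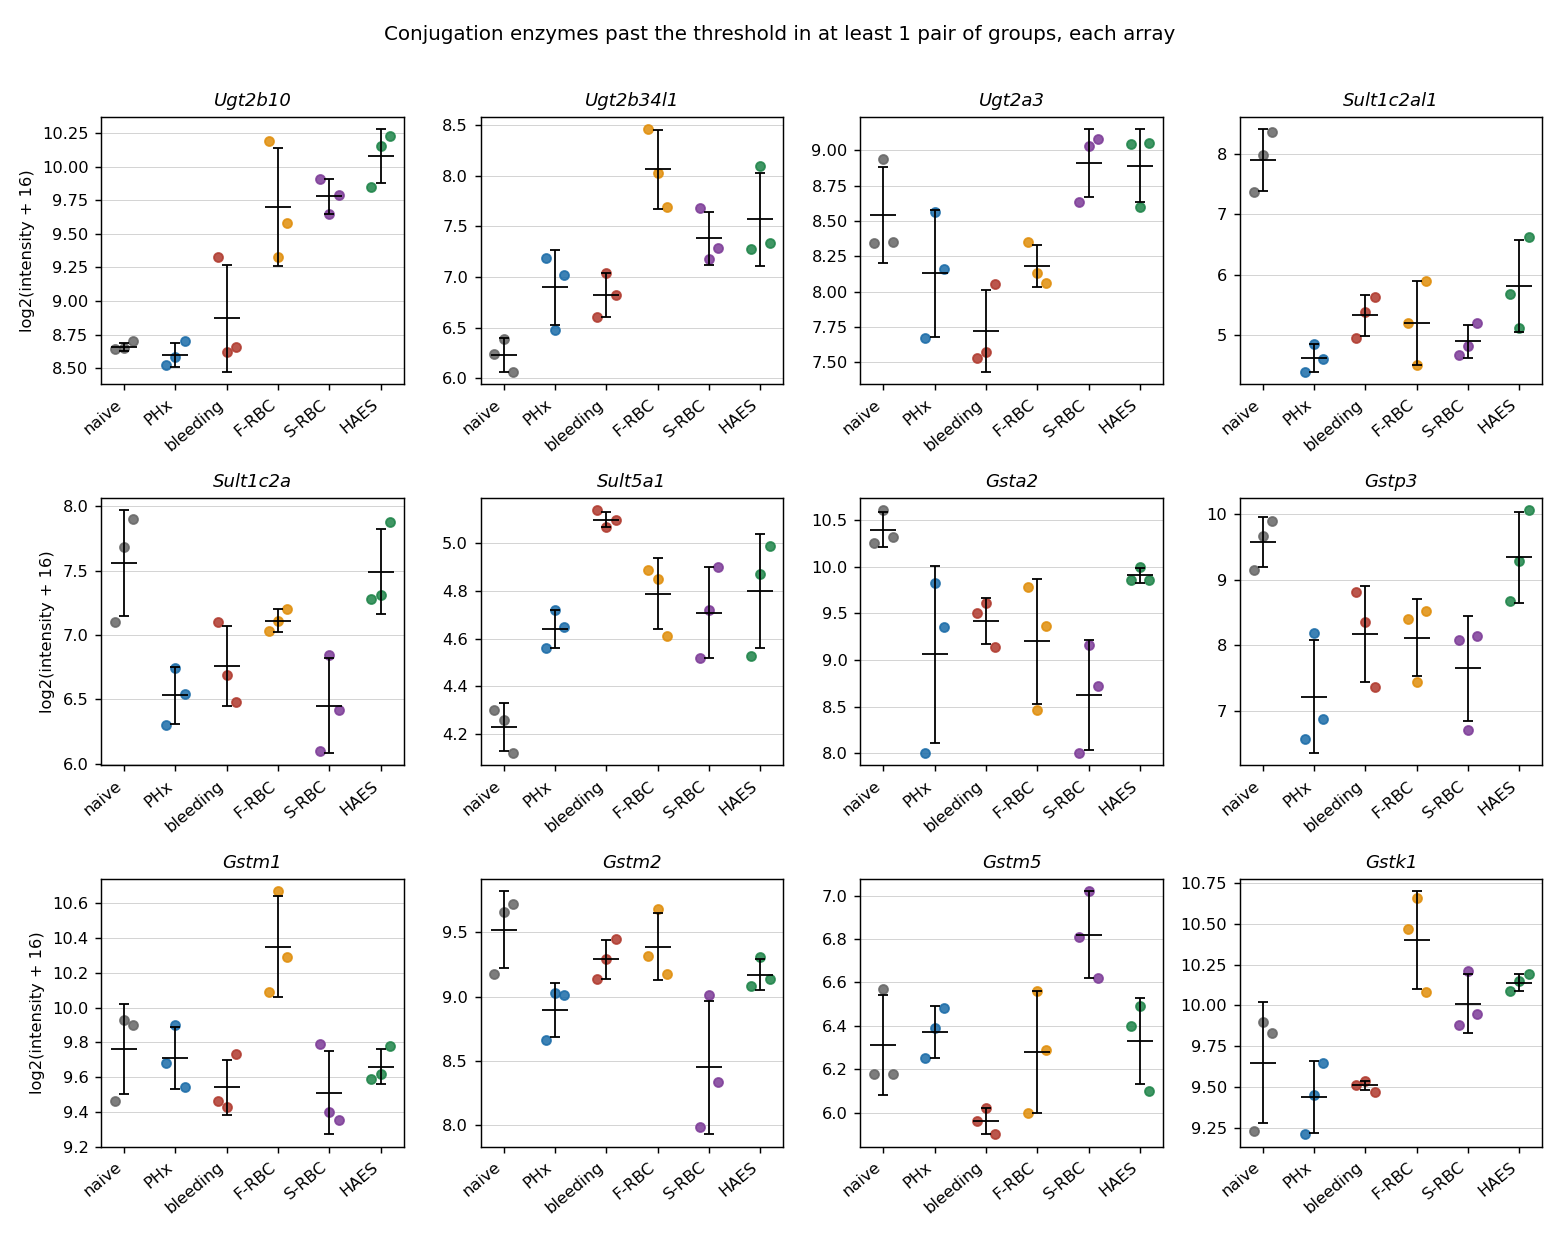
Level of the 12 members past the threshold in at least 1 pair of groups, as log2(intensity + 16) on a vertical axis of its own for each gene, in the 6 groups along the horizontal axis. Each point is the array of 1 rat in the order of replicates 1 to 3, and the bar with whiskers is the mean ± SD (n = 3). The naive points of Sult1c2al1 (7.36 to 8.36) lie above all others, and those of Sult5a1 (4.12 to 4.30) below all others.

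Among the SULTs, Sult1c2al1 had the largest difference of all 43 members. It belongs to the 1C family, whose known substrates are small phenolic and hydroxylated aromatic compounds. Its intensity was 148, 237 and 313 in naive rats and 5.02, 13.1 and 8.28 after PHx. After bleeding it was 15.1, 25.6 and 33.9, after F-RBC 21.0, 6.83 and 43.1, after S-RBC 9.57, 12.2 and 20.9, and after HAES 35.3, 18.9 and 82.8. No array of a rat with PHx reached the lowest naive array, and the HAES values came nearest. On the log2 scale it fell by 3.28 after PHx (SE 0.36, 95% interval −4.05 to −2.51, adjusted p = 0.000314). It was also lower than in naive rats after bleeding (−2.58, adjusted p = 0.00296), after F-RBC (−2.70, adjusted p = 0.000704), after S-RBC (−3.0, adjusted p = 0.000422) and after HAES (−2.09, adjusted p = 0.00412). These 5 comparisons share the same naive rats. Each call held with any 1 array left out and under 8 of 9 other settings, the exception being the methods' t-test after adjustment. The sequence around its start site is shown because no other member moved as far. It lies on the − strand at chr9:7529294-7529593 (GRCr8). It holds no exact match to the motifs searched, and looser matches were not sought.
Sult1c2al1: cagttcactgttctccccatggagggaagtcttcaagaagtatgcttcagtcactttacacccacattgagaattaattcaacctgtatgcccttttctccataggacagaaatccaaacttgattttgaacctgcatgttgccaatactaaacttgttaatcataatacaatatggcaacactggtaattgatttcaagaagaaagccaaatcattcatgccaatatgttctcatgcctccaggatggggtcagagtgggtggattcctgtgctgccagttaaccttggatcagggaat

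Sult1c2a, of the same family, also had its highest mean in naive rats, at 7.10, 7.68 and 7.90. It was 6.30, 6.74 and 6.54 after PHx, 7.10, 6.69 and 6.48 after bleeding and 7.03, 7.11 and 7.20 after F-RBC. S-RBC rats had 6.10, 6.84 and 6.42, and HAES rats 7.28, 7.31 and 7.88. The S-RBC arrays lay below all naive arrays, a fall by 1.11 (SE 0.24, adjusted p = 0.0162), and the difference after PHx was −1.04 (adjusted p = 0.0797). The S-RBC call was lost without naive replicate 2, naive replicate 3 or S-RBC replicate 1, with adjusted p up to 0.0688, and without S-RBC replicate 1 the difference was −0.93. A probe set shared by Sult1c2a and Sult1c2 was called in no pair.

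Sult5a1, a sulfotransferase whose substrates are little known, was dim throughout. Its intensity was 3.76, 3.18 and 1.38 in naive rats, 19.2, 17.5 and 18.2 after bleeding and between 7.02 and 15.8 in the other groups. All naive arrays were below all others. On the log2 scale the rise over naive was 0.87 after bleeding (SE 0.13, adjusted p = 0.00382), and this held with any 1 array left out. It was 0.56 after F-RBC (adjusted p = 0.0198), 0.48 after S-RBC (adjusted p = 0.0478) and 0.57 after HAES (adjusted p = 0.0236). Of these last 3, the F-RBC call was lost without naive replicate 1 or 3 or F-RBC replicate 1 or 2 (adjusted p up to 0.0836). The S-RBC call was lost without any 1 naive array or S-RBC replicate 2 or 3 (up to 0.142), and the HAES call without any 1 naive array or HAES replicate 2 or 3 (up to 0.128). With median centring the F-RBC and S-RBC calls were lost as well.

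Sult2a1, the hydroxysteroid and bile acid sulfotransferase, varied widely between rats of 2 groups. It was 9.94, 10.59 and 6.40 in naive rats and 4.64, 9.02 and 9.77 after bleeding. The other groups were closer together, with 8.64, 8.29 and 9.06 after PHx, 9.80, 7.97 and 9.50 after F-RBC, 9.68, 9.16 and 9.93 after S-RBC and 9.88, 10.60 and 10.26 after HAES. The lowest values came from naive replicate 3 and bleeding replicate 1. Its largest difference, 2.44 between HAES and bleeding (SE 1.06, 95% interval 0.19 to 4.68, adjusted p = 0.293), was not past the threshold.

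The remaining SULTs were called nowhere. Sult1a1, the main phenol sulfotransferase, kept group means between 10.60 after bleeding and 10.97 after S-RBC. Sult1b1, which sulfates thyroid hormones, was 9.37, 9.38 and 9.65 after bleeding and had means of 9.97 to 10.10 in the other groups, and its difference between S-RBC and bleeding of 0.64 (SE 0.17, adjusted p = 0.0637) came nearest to the threshold among the uncalled members. Sult1c3 had means from 10.11 after PHx to 10.79 after HAES. Sult2b1, which sulfates cholesterol and pregnenolone, had its lowest mean in naive rats (4.91 ± 0.12) and means of 5.25 to 5.37 elsewhere. Sult1d1, Sult2a2, Sult6b1 and Sult6b2 stayed dim. A probe set listed with 2 identifiers under the symbol Sult1e1, the estrogen sulfotransferase, was 11.41, 11.42 and 11.46 in naive rats. It was 10.65, 10.35 and 11.32 after PHx (difference from naive −0.66, SE 0.32, adjusted p = 0.490) and 11.22, 9.35 and 10.75 after F-RBC (difference −0.99, SE 0.32, adjusted p = 0.0748). All arrays of both groups lay below the naive ones, and neither difference was past the threshold. The bleeding arrays had 11.38, 11.36 and 11.44, the S-RBC arrays 11.39, 11.45 and 11.49 and the HAES arrays 11.44, 11.53 and 11.36, which overlapped the naive range.

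**Figure D3:**
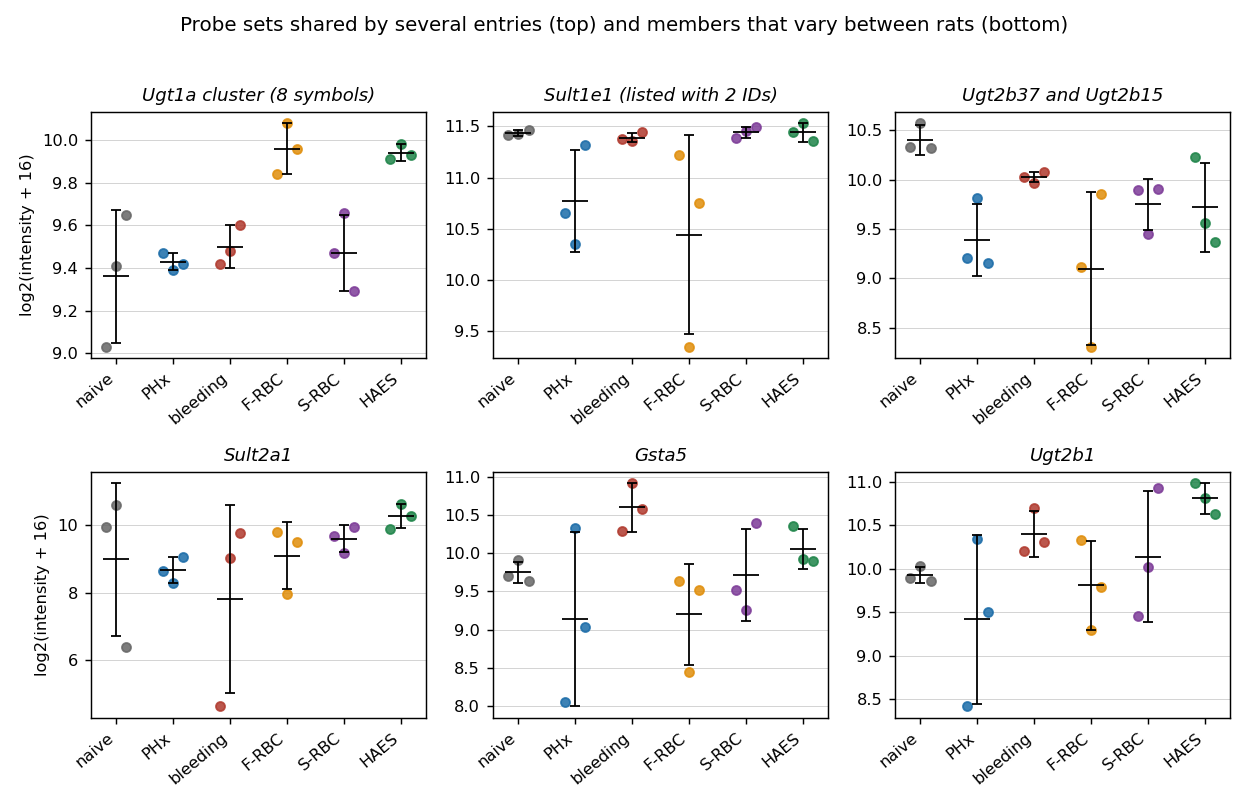
Level as log2(intensity + 16) in each array (points, replicates 1 to 3 of each group from left to right) with mean ± SD (bars, n = 3), for 3 probe sets annotated to several entries (top row) and 3 members that were called in no pair and spread widely between rats (bottom row). Sult2a1 has 1 low naive array (6.40) and 1 low bleeding array (4.64), and the Ugt1a cluster is higher after F-RBC (9.84 to 10.08) and HAES (9.91 to 9.98) than in every naive array (9.03 to 9.65).

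In the alpha class of GSTs, which reduce lipid peroxides and bind bilirubin and bile acids, the naive livers were at the top for Gsta1 and Gsta2. Gsta2 was 10.26, 10.61 and 10.32 in naive rats and 8.0, 9.83 and 9.36 after PHx. It was 9.50, 9.61 and 9.14 after bleeding, 9.78, 8.46 and 9.37 after F-RBC, 8.0, 9.16 and 8.72 after S-RBC and 9.86, 10.00 and 9.86 after HAES. All 15 arrays with PHx lay below the 3 naive arrays, and PHx replicate 1 and S-RBC replicate 1 were lowest. The fall by 1.77 after S-RBC was past the threshold (SE 0.39, 95% interval −2.59 to −0.95, adjusted p = 0.0194). Without S-RBC replicate 1 it was −1.46 (adjusted p = 0.0827), and it was also lost without naive replicate 1 or 2. The differences after PHx (−1.33) and F-RBC (−1.19) had adjusted p of 0.176 and 0.0783. Gsta1 differed from naive by −1.01 after S-RBC (adjusted p = 0.154) and was called in no pair.

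The Gsta2 start site is shown because the antioxidant response element, the site that NRF2 binds, was first described before rat and mouse GST genes of this class. Capitals mark its core TGACNNNGC and GCGTG on either strand, in the window at chr8:88077043-88077342 (GRCr8, − strand).
Gsta2: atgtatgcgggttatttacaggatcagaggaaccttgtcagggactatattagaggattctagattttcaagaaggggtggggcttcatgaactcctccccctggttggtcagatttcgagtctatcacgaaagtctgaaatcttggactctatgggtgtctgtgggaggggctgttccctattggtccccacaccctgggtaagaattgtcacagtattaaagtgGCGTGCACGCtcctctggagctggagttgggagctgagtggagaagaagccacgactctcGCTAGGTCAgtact
The core TGACNNNGC stands at 1 place here, on the opposite strand and after the start, and GCGTG at 2 places. TGACNNNGC was found in 6 of 40 member windows, those of Gsta1, Gsta2, Gsta3, Gstm5, Gstm7 and Gstp1, beside 12.1% of all windows. An exact string for a site of hepatocyte nuclear factor 1 and one for a direct repeat of nuclear receptors (DR4) were in 0 of 40. Over all 33469 windows they were in 1 and 4 (0.00299% and 0.012%). Such strings are too rare for 40 windows to show whether the members have or lack these sites, and looser matches were not sought. All searches covered both strands and a window of 300 bases.

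Gsta5, a rat enzyme that conjugates the epoxide of aflatoxin, was 9.70, 9.91 and 9.64 in naive rats and spread from 8.06 to 10.33 after PHx. After bleeding it was 10.29, 10.92 and 10.58 and after F-RBC 9.64, 8.45 and 9.52, without overlap. That difference of −1.40 (SE 0.43, adjusted p = 0.134) was not past the threshold. Gsta4, which takes aldehydes from lipid peroxidation, had its lowest mean in naive rats (6.25 ± 0.47) and its highest after bleeding (6.90 ± 0.18, SD, n = 3, adjusted p = 0.288). Gsta3 and Gsta6 had group means between 5.38 and 6.22 and between 5.82 and 6.93, with SDs up to 0.95 and 1.20.

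In the mu class, Gstm1 and Gstm2, long known as the main mu forms of rat liver, differed in which group stood out. Gstm1 was 9.46, 9.93 and 9.90 in naive rats, 9.68, 9.90 and 9.54 after PHx, 9.46, 9.43 and 9.73 after bleeding and 9.59, 9.62 and 9.78 after HAES. F-RBC rats had the highest values, 10.09, 10.67 and 10.29, above every other array, and S-RBC rats had 9.79, 9.40 and 9.35. Gstm1 rose after F-RBC against bleeding by 0.81 (SE 0.18, adjusted p = 0.0338), a call that held only in the fit without F-RBC replicate 1 when 1 array at a time was left out (adjusted p up to 0.155), and that was lost with median centring. Gstm2 was lowest after S-RBC, at 7.99, 9.01 and 8.34, against 9.18, 9.66 and 9.72 in naive rats. That fall by 1.07 was past the threshold (SE 0.22, adjusted p = 0.0129), and became −0.85 without S-RBC replicate 1 (adjusted p = 0.0609). It was also lost without naive replicate 2 or 3. Gstm2 was 8.66, 9.03 and 9.01 after PHx, 9.14, 9.29 and 9.45 after bleeding, 9.32, 9.68 and 9.18 after F-RBC and 9.08, 9.31 and 9.14 after HAES.

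Gstm5 was 5.96, 6.02 and 5.90 after bleeding and 6.81, 7.02 and 6.62 after S-RBC, a rise by 0.85 (SE 0.17, adjusted p = 0.0186), while the other groups had means of 6.28 to 6.37. The call was lost without any 1 bleeding array or S-RBC replicate 2, with adjusted p up to 0.0895. Gstm7 differed among the 6 groups (F test, adjusted p = 0.0269) and in no pair. It was 7.04, 7.58 and 7.49 in naive rats, 7.72, 7.21 and 7.28 after F-RBC and 7.24, 7.49 and 7.54 after HAES, but 6.64, 6.77 and 6.12 after PHx, 6.93, 6.36 and 6.36 after bleeding and 6.10, 6.93 and 6.84 after S-RBC. Every array of the first 3 groups was above every array of the other 3. This division was read from the values, and the share of all probe sets that part this way was not counted. Gstm4 had its highest mean in naive rats (7.30 ± 0.15) and means of 6.61 to 6.96 elsewhere, and Gstm3 had its highest means after F-RBC (5.80 ± 1.08) and PHx (5.76 ± 0.24), with neither called.

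The pi class held the member with the second largest fall. Gstp3 was 9.15, 9.67 and 9.89 in naive rats and 6.58, 8.19 and 6.88 after PHx. It was 8.81, 8.36 and 7.37 after bleeding, 8.40, 7.44 and 8.53 after F-RBC and 8.08, 6.72 and 8.15 after S-RBC. HAES rats, at 8.68, 9.28 and 10.06, overlapped the naive range. Gstp3 fell by 2.35 after PHx (SE 0.49, adjusted p = 0.0492) and dropped by 1.92 after S-RBC (adjusted p = 0.0403). When 1 array at a time was left out, the PHx call held only in the fit without PHx replicate 2 (adjusted p up to 0.25) and the S-RBC call only in the fit without S-RBC replicate 3 (up to 0.135), with both losing it in the fit with only the groups compared. Without S-RBC replicate 1 the difference after S-RBC was −2.13 (adjusted p = 0.0591). Gstp1, the form that marks early liver tumour foci in the rat, had group means of 5.33 to 5.95 and was called nowhere.

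Gstk1, the kappa form of mitochondria and peroxisomes, was highest after F-RBC at 10.47, 10.66 and 10.08. It was 9.23, 9.90 and 9.83 in naive rats, 9.21, 9.45 and 9.65 after PHx and 9.51, 9.54 and 9.47 after bleeding. S-RBC rats had 9.88, 10.21 and 9.95 and HAES rats 10.09, 10.15 and 10.19. Their means lay between those of naive and F-RBC rats, while their arrays overlapped the F-RBC arrays. Gstk1 rose after F-RBC by 0.75 against naive (SE 0.18, adjusted p = 0.0243), 0.96 against PHx (adjusted p = 0.0395) and 0.89 against bleeding (adjusted p = 0.0237). The call against naive was lost without naive replicate 1 or F-RBC replicate 1 or 2 (adjusted p up to 0.113). Against PHx only the fit without F-RBC replicate 3 kept it (up to 0.179), and the same fit alone kept the call against bleeding (up to 0.114). With median centring the calls against naive and PHx were lost. The omega form Gsto1, a thiol transferase, had group means of 8.54 to 8.84, and Gstt2 of 8.03 to 8.46. The 2 probe sets annotated to Gstt1 and Gstt3 were called in no pair.

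Stored against fresh red cells was the comparison the study was built around, and 1 member passed in it as lower after S-RBC (0.417% of all probe sets) and 0 as higher (0.0791%). Gstm1 was lower after S-RBC than after F-RBC by a difference of −0.84 (95% interval −1.21 to −0.46, adjusted p = 0.0481), without overlap of the groups. The call was lost in each of the 6 fits that left out 1 array (adjusted p up to 0.196), and without S-RBC replicate 1 the difference was −0.97 (adjusted p = 0.0747). Gstm2 came next at −0.95 (95% interval −1.42 to −0.48, adjusted p = 0.0618), which became −0.72 without S-RBC replicate 1. Gstm7 was at −0.78, Ugt2b34l1 at −0.67 and Sult1c2a at −0.66, and in the other direction Ugt2a3 was at 0.74 (95% interval 0.25 to 1.23) and Gstm5 at 0.53, with adjusted p of 0.115 to 0.164 among these 5. For Ugt2b10 the difference was 0.08 with an interval of −0.35 to 0.52, for Sult1a1 0.08 (−0.22 to 0.38) and for Sult1d1 −0.09 (−0.27 to 0.10). For Sult2a1 the interval ran from −1.75 to 2.75, which leaves its direction undecided. An unadjusted p under 0.05 from limma was reached by 9 of the 43 members (20.9%), beside 18.5% of all probe sets. The probe set of Sult1e1, outside the members, differed by 1.0 (95% interval 0.32 to 1.68, adjusted p = 0.122), with all 3 S-RBC arrays above the F-RBC arrays.

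**Figure D4:**
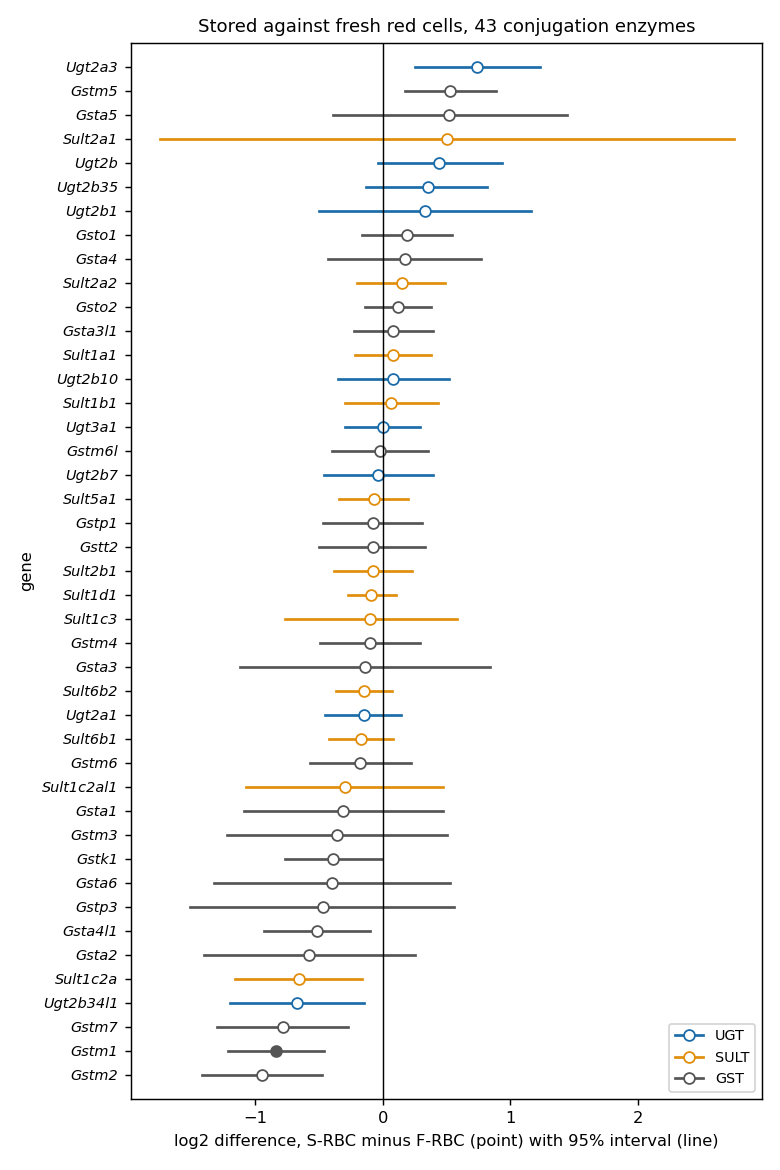
Log2 difference of each of the 43 members between S-RBC and F-RBC rats (horizontal axis, points, 3 rats per group) with its 95% interval (lines), ordered by size and coloured by family, filled where past the threshold. The only filled point is Gstm1 at −0.84, and the widest interval is that of Sult2a1.

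Against the rats that were bled and not resuscitated, the calls were all higher. Ugt2b34l1, Gstm1 and Gstk1 were called higher after F-RBC, 3 of 43 members beside 1.01% of all probe sets, and 0 lower beside 0.194%. After S-RBC the 3 called higher were Ugt2b10, Ugt2a3 and Gstm5, beside 1.22%, with 0 lower beside 0.84%. After HAES the 2 called higher were Ugt2b10 and Ugt2a3, beside 1.15%, with 0 lower beside 0.66%. These 3 comparisons share the bleeding rats. Against PHx alone, Ugt2b10 and Gstk1 were called higher after F-RBC (2 members, beside 0.0681% of all probe sets) and 0 members lower (0.104%). After S-RBC 1 member, Ugt2b10, was called higher (0.515%) and 0 lower (0.218%). Between bleeding and PHx 0 members passed, as did 0% of all probe sets, and 8 members (18.6%) had an unadjusted p under 0.05 from limma, beside 11.2% of all probe sets, and 9 (20.9%) by the methods' t-test, beside 14.1%. After HAES 32 of 43 members lay above the bleeding mean, with a median difference of 0.26, against −0.01 over all probe sets, and quantile normalization and median centring left this at 0.23 and 0.29.

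Genes linked to the making, transport or breakdown of the 3 donors were counted from a list of 22, of which 21 were measured. Its counts therefore do not measure donor supply. Ugp2, which makes UDP-glucose, the precursor of UDP-glucuronic acid, was 9.13, 9.46 and 9.64 in naive rats and 8.06, 8.32 and 8.24 after PHx. It fell against naive by 1.20 after PHx (adjusted p = 0.0125), 1.31 after bleeding (adjusted p = 0.00357), 0.85 after F-RBC (adjusted p = 0.0168) and 1.13 after S-RBC (adjusted p = 0.00334), while HAES rats, at 8.64, 8.75 and 9.35, were not past the threshold. Slc35b1, a nucleotide carrier of the endoplasmic reticulum, had the opposite direction in the same 4 comparisons, with rises of 1.02 (adjusted p = 0.0341), 0.90 (0.0383), 1.31 (0.00148) and 1.36 (0.00102). Papss2, which makes PAPS, was 7.60, 6.88 and 7.11 after bleeding and 9.24, 8.76 and 8.38 after F-RBC. It rose against bleeding by 1.60 after F-RBC (adjusted p = 0.00797), 1.08 after S-RBC (adjusted p = 0.0378) and 1.11 after HAES (adjusted p = 0.0361). Gclc and Gclm, the subunits of the first enzyme of glutathione synthesis, rose after HAES against bleeding by 0.98 (adjusted p = 0.00771) and 1.16 (adjusted p = 0.00700), and Gclc also after F-RBC by 0.73 (adjusted p = 0.0444). Against naive rats the list had 1 higher and 1 lower call after PHx, beside 0.245% and 0.101% of all probe sets. It had the same after bleeding (0.57% and 0.349%). It had 2 higher and 1 lower after F-RBC (4.9% and 1.28%) and after S-RBC (2.56% and 0.804%), and 0 after HAES (1.78% and 0.842%). The higher call after PHx and that after bleeding were both Slc35b1. After S-RBC the higher calls were Slc35b1 and Chac1, a glutathione-degrading enzyme (0.73, adjusted p = 0.0300). Against bleeding the list had 3, 1 and 5 higher calls after F-RBC, S-RBC and HAES, beside 1.01%, 1.22% and 1.15%. It had 0 lower, beside 0.194%, 0.84% and 0.66%.

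**Figure D5:**
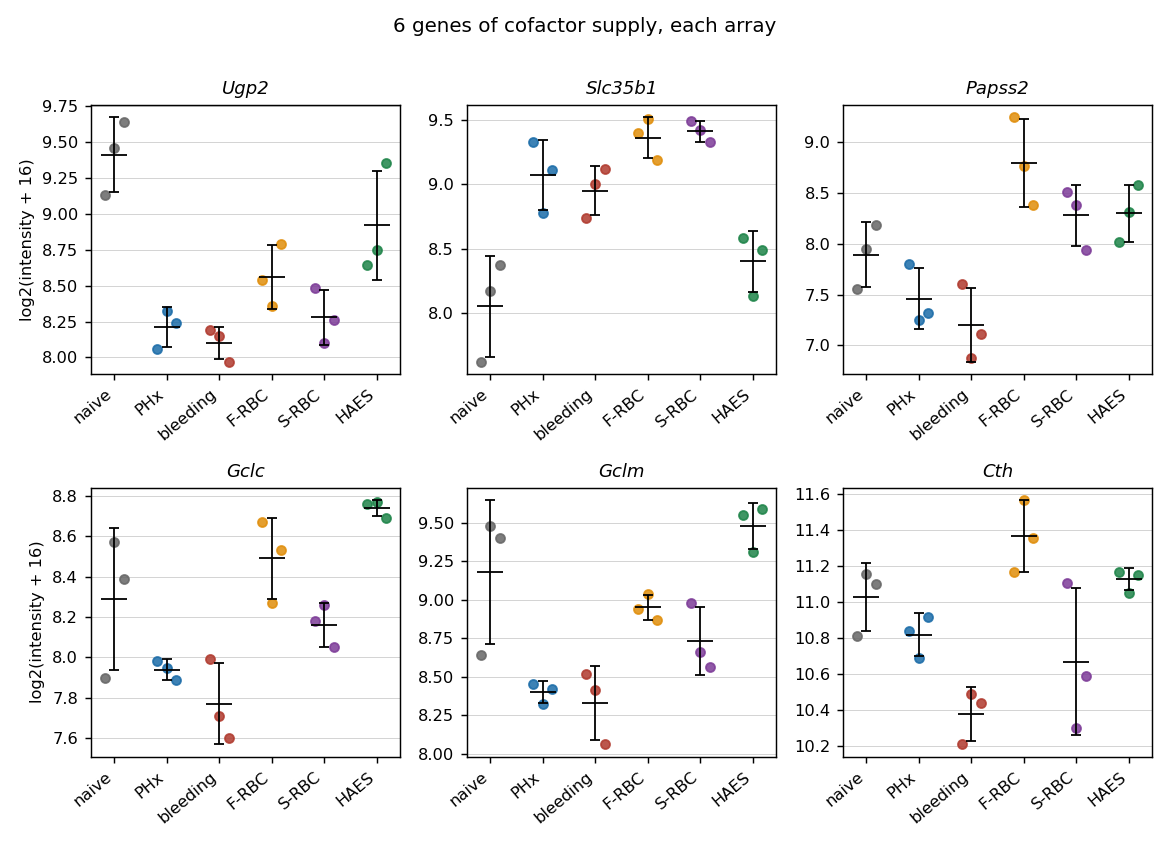
Level as log2(intensity + 16) of 6 genes from the list of donor genes in the 6 groups. Points are single arrays, replicates 1 to 3 from left to right, and bars are mean ± SD (n = 3). Ugp2 is highest in naive rats (9.13 to 9.64), and Papss2 is higher in all 3 F-RBC arrays (8.38 to 9.24) than in all 3 bleeding arrays (6.88 to 7.60).

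Of 18 regulators listed, 17 were measured. Nfe2l2 was 7.96, 8.68 and 8.58 in naive rats and 9.27, 9.93 and 9.37 after F-RBC, and rose against naive by 1.12 after F-RBC (SE 0.24, adjusted p = 0.0147) and by 0.95 after HAES (adjusted p = 0.0459). Nr1h4, the bile acid receptor FXR, rose against bleeding by 1.01 after S-RBC (adjusted p = 0.00937) and 1.17 after HAES (adjusted p = 0.00408), and Esr1, the estrogen receptor, fell by 1.09 after S-RBC against naive (adjusted p = 0.0317). The genes of CAR (Nr1i3), PXR (Nr1i2) and AHR (Ahr) were not past the threshold against naive in any group. Among 13 measured NRF2 targets outside the members, Akr7a3, an aldehyde reductase, fell against naive in all 5 groups, by 1.35 to 1.83. Nqo1, a quinone reductase, rose by 1.22 after F-RBC (adjusted p = 0.0219), its only call against naive. Its mean was 5.46 in naive rats and higher in every group with PHx. The Nqo1 mean was 6.49 after PHx alone, 6.55 after bleeding, 6.69 after F-RBC, 6.5 after S-RBC and 6.27 after HAES. Against naive the NRF2 target list had 0 higher and 1 lower call after PHx (beside 0.245% and 0.101% of all probe sets) and after bleeding (0.57% and 0.349%). It had 1 higher and 2 lower after F-RBC (4.9% and 1.28%). After S-RBC (2.56% and 0.804%) and HAES (1.78% and 0.842%) it had 0 higher and 2 lower. In each group 5 to 7 of the 13 lay above naive, with medians of −0.14 to 0.04. Among 9 measured targets of CAR and PXR, Cyp2b1 was 4.0, 4.84 and 5.0 in naive rats and 10.54, 10.86 and 10.37 after bleeding, and it rose in every group with PHx, by 3.55 to 6.01. Against naive the list had 1 higher call after PHx (beside 0.245% of all probe sets) and 4 after bleeding (0.57%). It had 3 after F-RBC (4.9%), 4 after S-RBC (2.56%), 4 after HAES (1.78%) and 1 lower after S-RBC (0.804%). Microsomal Mgst3 was 8.17, 8.19 and 8.08 in naive rats and 6.62, 6.67 and 6.52 after bleeding, where it fell by 1.55 (adjusted p = 0.00491). It rose against bleeding by 1.20 after F-RBC (adjusted p = 0.0182) and by 1.18 after HAES (adjusted p = 0.0172). After S-RBC the difference from bleeding was 0.73 (adjusted p = 0.105). With Mgst3, 12 of 15 listed enzymes of other conjugations were measured. Their calls against naive were 3 lower after bleeding (beside 0.349% of all probe sets) and 2 lower after S-RBC (0.804%). In no group was any called higher (0.245% to 4.9%).

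Across all 6 groups, 14 members had a range of group means over 1 and 13 had one under 0.5. The highest mean was in naive rats for 13 members, and the lowest was in naive rats for 7 and in PHx rats for 10. In 12 members no array exceeded 5.5, and differences of these dim probe sets are held small by the added 16. Of the 30 members called in neither a pair nor the F test, the smallest adjusted p was 0.0637 and the largest difference 2.44. In some groups the lowest values of the members came more often from 1 rat than those of other probe sets did, which was not tested. Of the 31 members brighter than the median probe set, PHx replicate 1 was the lowest of the 3 PHx arrays in 22, beside 28.6% of all 18343 brighter probe sets, and F-RBC replicate 2 the lowest of the 3 F-RBC arrays in 19, beside 25.0%. Bleeding replicate 1 was the lowest bleeding array in 16, beside 27.7%. Naive replicate 1 was the lowest naive array in 22 (71.0%), but that is near the 65.4% over all brighter probe sets. The mean of 5 cycling-cell markers was 6.43 to 7.05 in F-RBC arrays, 5.34 to 5.61 in naive arrays and 5.24 to 5.89 in S-RBC arrays, and its part in the F-RBC differences was not tested. That of 6 neutrophil markers was 4.97 to 5.16 in naive and in HAES arrays and 5.72 to 6.0 in PHx arrays, and its part in the differences from naive was likewise not tested. Members of each family are close in sequence, and how far a probe set also takes up RNA of a paralog was not tested.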

How the data were processed

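The deposited values were linear intensities that the authors had summarised, 1 per probe set and array. Affymetrix Power Tools and PLIER appear in the submitters' notes, RMA and PLIER in the methods. Versions, genome build and the method behind these values were not given in the sources used here. Array medians differed, so no common distribution had been imposed. Intensities ran from 1e-05 to 8721, and 0 columns of samples were left unused. Precision is limited by the number of arrays.

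Intensities were transformed as log2(intensity + 16) and not normalized further. limma 3.58.1 in R 4.3.3 fitted 1 mean per group over 18 arrays with a variance trend (12 residual degrees of freedom, median prior 4.79). The 12 comparisons and the F test among the 6 groups were each adjusted by Benjamini-Hochberg over 36685 probe sets at 0.05. The labels call the replicates biological. In the array annotation 18511 probe sets had 1 gene, 575 had several and 17599 had none. All 43 members were found in RefSeq (GRCr8) with 0 symbols changed, and 40 had a start-site sequence there. The members and lists were chosen with earlier results of these data known. Named were members past the threshold, the 5 largest differences of each comparison, a panel of 37 liver genes of which 27 were members, and up to 4 genes per list. Other settings changed the scaling (quantile, median centring), the offset (1, 64), the filter on dimmer probe sets, array weights, a replicate block and the arrays fitted, or used the methods' t-test. The fit was checked on simulated data. Python 3.11.15, pandas 2.3.3 and matplotlib 3.10.9 served for tables and figures.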

Additional observations from a re-analysis of the deposited data

How the results depend on the processing

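The number of members past the threshold changed with the setting. Counts that did not stay within 1.5 times the main value came under the settings named here. Quantile normalization gave 1 for F-RBC against PHx. Median centring gave 4 for bleeding against naive and 0 for F-RBC against PHx and S-RBC against F-RBC. An offset of 1 gave 1 for PHx against naive and 0 for S-RBC against F-RBC. Without dimmer probe sets there were 1 for bleeding against naive and 5 for S-RBC against bleeding. Array weights gave 4, 8 and 10 for PHx, bleeding and F-RBC against naive, 1 and 5 for bleeding and F-RBC against PHx, and 8 and 6 for F-RBC and S-RBC against bleeding. With only the groups compared, which leaves fewer samples to estimate the spread, there was 1 for PHx against naive, 4 for S-RBC against naive and 0 for F-RBC against PHx, F-RBC and S-RBC against bleeding, and S-RBC against F-RBC. The methods' t-test gave 0 after adjustment in all 12 comparisons and 4 to 17 before it (9.3% to 39.5% of members, beside 9.12% to 22.3% of all probe sets; for S-RBC against PHx 9.3% beside 9.32%). The causes of the other shifts were not tested. With the replicate block the counts were 1 for PHx against naive and 0 for F-RBC against PHx. Same-numbered arrays correlated above 0.1 in every pair in 0 of 12 comparisons, and 3 of 18 arrays correlated best with their own number. With 3 arrays per group this check is weak, and a batch or day shared by same-numbered arrays was not tested. When 1 replicate was left out, the counts were 1 to 2 for PHx, 2 to 2 for bleeding, 3 to 5 for F-RBC, 3 to 8 for S-RBC and 3 to 5 for HAES against naive, 0 to 0 for bleeding, 0 to 1 for F-RBC and 0 to 1 for S-RBC against PHx, 0 to 2 for F-RBC, 0 to 3 for S-RBC and 1 to 2 for HAES against bleeding, 0 to 1 for S-RBC against F-RBC and 7 to 13 for the F test. Without 1 replicate the differences of Sult2a1 ran from −0.02 (naive replicate 3 left out) to 2.08 (naive replicate 2 left out) for HAES against naive and from −2.46 to 0.42 for bleeding against naive, and from −1.83 to 0.73 for bleeding against PHx and −0.30 to 2.26 for F-RBC against bleeding, so that they turned direction without naive replicate 3 or bleeding replicate 1. Of the other single-gene values 855 kept direction and side of the threshold, 157 lost and 15 gained the call. Dim members, 12 of 43, are limited by their signal.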
